A study of Mus musculus with 25 samples.

Results

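The 10 genes described here build or maintain the light-sensing end of the mouse photoreceptor. They were taken by gene symbol, not by any measured value, from the 18440 genes listed in all 5 expression tables of the study. Of them, 6 encode proteins of the outer segment and its discs (Prph2, Rom1, Prom1, Cdhr1, Abca4 and Rp1) and 4 encode transcription factors of photoreceptors (Crx, Nrl, Nr2e3 and Neurod1). All 10 were found in every table and passed the filter on low values. In the retinas given tunicamycin, 2 of the 10, Nr2e3 and Nrl, were lower than in the retinas given Ceapin-A7, where 13.3% of the 13117 genes tested differed. Against its own vehicle, each compound left all 10 short of the test's threshold, which 8.7% of genes passed for tunicamycin and 0% passed for Ceapin-A7 and for AA147.

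A photoreceptor carries a modified cilium, the outer segment, filled with a stack of flattened membrane discs that hold the visual pigment and are renewed throughout life. Peripherin-2 and ROM1 are related tetraspanins that bend the disc rim, prominin-1 and the cadherin CDHR1 sit where new discs form at the base, ABCA4 moves retinoids across the disc membrane, and RP1 is a microtubule-associated protein of the axoneme beside the stack. The homeodomain factor CRX acts in rods and cones, NRL directs photoreceptor precursors to the rod fate, NR2E3 acts downstream of NRL and holds cone genes down in rods, and the basic helix-loop-helix factor NEUROD1 is needed for photoreceptor survival.

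The study asked how small molecules that act on ATF6, a sensor of the unfolded protein response, change the retinal transcriptome. Retinas of wild-type C57BL/6J mice injected at postnatal day 30 were sequenced in bulk in 25 libraries, 5 per group, and levels are in FPKM (sequenced fragments of a gene divided by transcript length in kilobases and by the mapped fragments of the library). Tunicamycin, which blocks N-linked glycosylation and so causes endoplasmic reticulum (ER) stress, Ceapin-A7, described as an ATF6 inhibitor, and AA147, described as an ATF6 activator, were each injected into the vitreous of both eyes as 1 µL at 10 µM. Both vehicle sets, named PBS.2 and PBS, are labelled PBS, while the protocol gives the control as saline with 0.05 to 0.1% dimethyl sulfoxide (DMSO). Tunicamycin and Ceapin-A7 share the gene list of PBS.2 and were compared with it, and AA147 shares that of PBS. The columns of the compound tables carry a time of 24 h after injection and the vehicle columns carry none. The labels do not say that libraries came from separate animals, so the p-values weigh differences against a scatter of libraries that may be only technical.

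Several libraries stood apart from their groups. Libraries 4 and 5 of PBS.2 had a mean log2 level of 8.99 and 8.98 over 20 rod phototransduction genes, against 9.33 to 9.44 in libraries 1 to 3 of PBS.2, and a mean of 4.62 and 4.71 over 12 targets of the stress kinase PERK and its effector ATF4, against 3.33 to 3.67. Tunicamycin library 1 had the most transcript of the ER chaperone Hspa5 (1513 FPKM, against 229 to 581 FPKM in the other 4) and the highest sum of 12 lens genes (16789 FPKM). That sum ranged from 77.6 to 16789 FPKM over tunicamycin, 161 to 11319 over Ceapin-A7, 72.5 to 6786 over PBS.2, 67.5 to 1267 over AA147 and 175 to 1683 FPKM over PBS libraries, the lens gene Cryaa was above 0 in all 25, and 2 of the 12 genes were at 0 in some libraries. The Y-linked gene Ddx3y was listed at 0 in 0 of 5 tunicamycin, 2 of 5 Ceapin-A7, 4 of 5 PBS.2, 2 of 5 AA147 and 0 of 5 PBS libraries. Of a list of male and female marker genes, all 4 tested passed as higher in tunicamycin than in PBS.2, where 8.7% of all genes passed. All 4 passed as lower in PBS.2 than in PBS, where 46.8% of all genes passed. In these comparisons the treatment or the table cannot be fully told apart from the sex of the animals. The retina label was met by the rod markers: the 20 rod genes were above 0 in every library.

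The bases just before the start of 4 of the genes are shown because these were the members whose tunicamycin and Ceapin-A7 libraries did not overlap. They come from RefSeq (build GRCm38.p6, an earlier build than the GRCm39 of the deposited values), run 5′ to 3′ on the gene's strand over the 250 bases before the start, and have in capitals the letters TAATC or its reverse complement GATTA, the core of the site that CRX and the related factor OTX2 prefer. The windows lie at chr17:46910228-46910477 (+ strand) for Prph2, chr19:8929357-8929606 (- strand) for Rom1, chr14:55524253-55524502 (- strand) for Nrl and chr9:59950080-59950329 (- strand) for Nr2e3.
Prph2: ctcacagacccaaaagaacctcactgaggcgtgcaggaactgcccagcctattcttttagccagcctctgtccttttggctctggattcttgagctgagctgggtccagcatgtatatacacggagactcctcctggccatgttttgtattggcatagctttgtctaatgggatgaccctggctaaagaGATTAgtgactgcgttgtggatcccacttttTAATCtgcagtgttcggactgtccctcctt
Rom1: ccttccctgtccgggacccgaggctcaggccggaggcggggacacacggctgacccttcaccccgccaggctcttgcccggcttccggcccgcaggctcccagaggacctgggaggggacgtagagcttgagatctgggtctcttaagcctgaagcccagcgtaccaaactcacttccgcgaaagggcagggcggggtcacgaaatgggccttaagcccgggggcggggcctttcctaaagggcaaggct
Nrl: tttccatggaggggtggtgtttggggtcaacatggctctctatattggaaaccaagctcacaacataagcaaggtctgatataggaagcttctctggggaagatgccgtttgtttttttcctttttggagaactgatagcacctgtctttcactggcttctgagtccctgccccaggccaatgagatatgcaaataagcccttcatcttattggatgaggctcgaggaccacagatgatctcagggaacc
Nr2e3: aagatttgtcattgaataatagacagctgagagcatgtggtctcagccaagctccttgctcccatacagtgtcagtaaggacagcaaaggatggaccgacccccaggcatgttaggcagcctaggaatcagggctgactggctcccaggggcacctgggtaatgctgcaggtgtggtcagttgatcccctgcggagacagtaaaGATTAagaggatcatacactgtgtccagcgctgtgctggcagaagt
The core stands in capitals at 2 places in the Prph2 window and at 1 place in that of Nr2e3, and is not in those of Rom1 and Nrl. Of the 9 members with an entry, 4 held it in their first listed window (Prph2, Abca4, Crx and Nr2e3), against 20.2% of all 27025 windows. Its longer form TAATCC was in 2 of the 9 (Abca4 and Crx), against 6.383% of windows. The letters TGCTGA, part of the element that NRL binds, were in 1 (Neurod1), against 15.82%, and CAGATG, an E-box of the kind NEUROD1 binds, were in 1 (Nrl), against 14.48%. Both strands were searched, TAATCC contains TAATC, and the shorter core was added after the windows had been seen. A match describes letters in the window and is not evidence of binding.

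The 10 genes spanned about an order of magnitude in FPKM, a level per transcript length that can be set side by side between genes. Over the 25 libraries Prph2 averaged 2072 FPKM and Rom1 1779.6 FPKM, and the factors Nrl, Crx and Nr2e3 came next, in that order in every group. Libraries of Prph2 and Rom1 overlapped in the tunicamycin, PBS.2 and AA147 groups and did not in the Ceapin-A7 and PBS groups. Rom1, Nrl and Crx were separated from their lower neighbours in all 5 groups. Below them Nr2e3 and Cdhr1 overlapped in 4 groups, Ceapin-A7 being the exception, and the order of Cdhr1, Prom1, Neurod1, Rp1 and Abca4 changed between groups. Rp1 was last in the AA147 and PBS groups and Abca4 was last in the other 3.

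**Figure D1:**
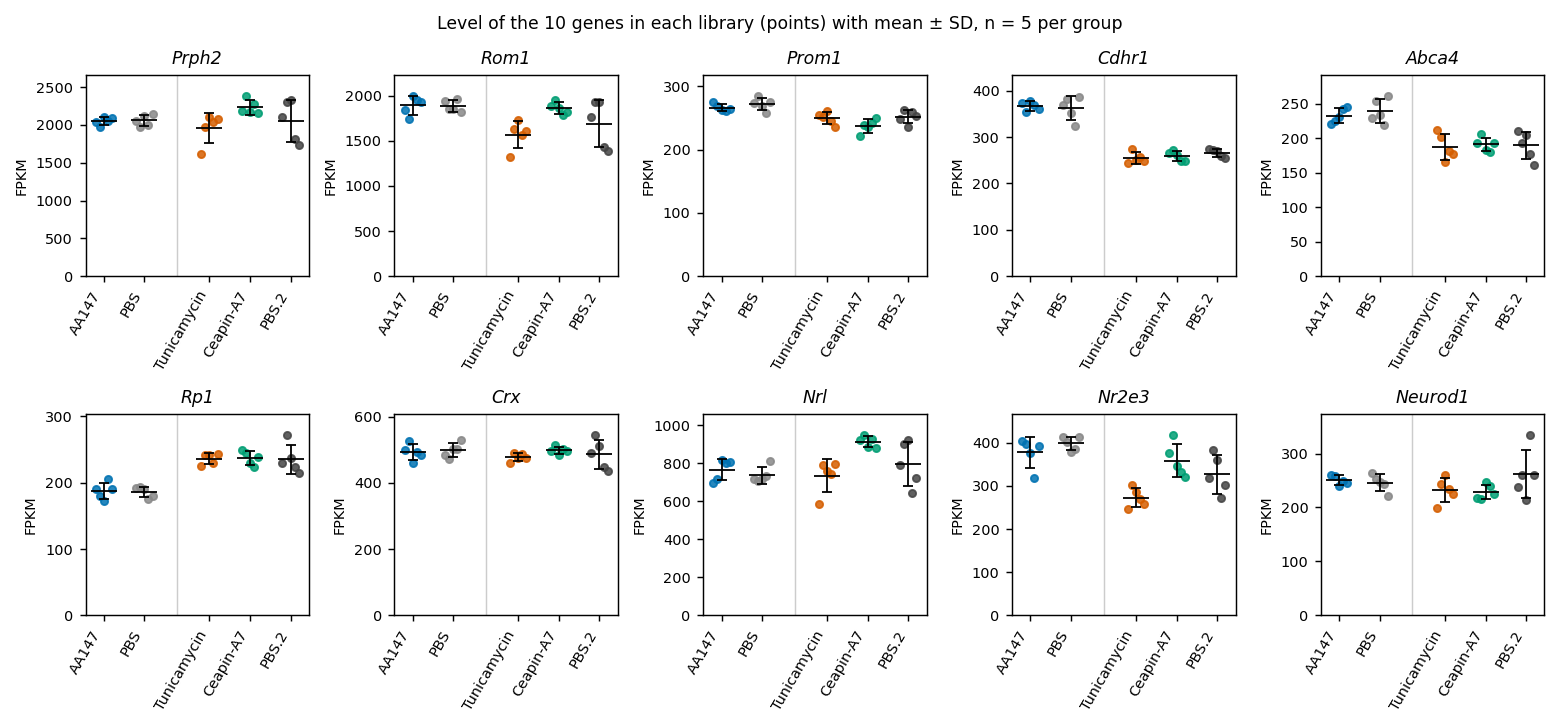
FPKM of each of the 10 genes (1 panel per gene, axis from 0) in each library, with the mean and SD of the 5 libraries of each group; a grey line parts AA147 and PBS from tunicamycin, Ceapin-A7 and PBS.2. Cdhr1 and Abca4 are lower and Rp1 is higher in the 3 groups on the right than in the 2 on the left, and Nrl and Nr2e3 are lower under tunicamycin than under Ceapin-A7.

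Tunicamycin, set against PBS.2, left the disc genes within the spread of the libraries. Differences are in log2(FPKM + 1), with a standard error (SE) from the spread pooled over all 5 groups. Of the 6 disc genes 5 had a negative difference, their median log2 difference was -0.04 beside 0.01 over all 13117 genes tested, and 0 passed limma's test at an adjusted p under 0.05, where 8.7% of all genes passed. Over all genes 773 passed as higher and 368 as lower, a split that came to 567 and 572 after quantile normalization and to 562 and 552 when libraries were scaled by median ratios. The groups overlapped for all 10 members in this comparison, where 4.05% of all genes had groups that did not. Prph2, the rim tetraspanin, had 1615, 1970.0, 2109, 2035 and 2075 FPKM in tunicamycin libraries 1 to 5, against 2112, 2300.4, 2326, 1810.4 and 1730.1 FPKM in PBS.2 libraries 1 to 5. Its low values were tunicamycin library 1 and PBS.2 libraries 4 and 5, and the groups overlapped. The log2 difference of Prph2 was -0.06 ± 0.08 (limma adjusted p = 0.665).

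Its partner Rom1 had 1317, 1626, 1727, 1563 and 1609 FPKM in tunicamycin libraries, against 1765, 1931, 1929, 1437 and 1388 FPKM in PBS.2 libraries. The same 3 libraries were the low ones, the groups overlapped, and the log2 difference was -0.10 ± 0.09 (limma adjusted p = 0.507). Without PBS.2 libraries 4 and 5 the Rom1 difference was -0.26 and passed (limma adjusted p = 0.0303), and that of Prph2 was -0.20 (adjusted p = 0.0968). In bulk retina, fewer photoreceptors and less transcript per photoreceptor cannot be told apart.

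The other 4 disc genes lay closer together. Prom1, the cholesterol-binding protein of nascent disc edges, ranged from 236 to 261 FPKM under tunicamycin and from 236 to 262 FPKM in PBS.2, a log2 difference of -0.01 ± 0.04 (limma adjusted p = 0.873). Cdhr1 ranged from 245 to 275 FPKM under tunicamycin and from 254 to 274 FPKM in PBS.2. Its log2 difference was -0.06 ± 0.05, with an interval of -10.2 to +2.45% on the FPKM + 1 scale. Abca4 ranged from 165 to 212 FPKM under tunicamycin and from 162 to 211 FPKM in PBS.2 (-0.01 ± 0.07). Rp1 ranged from 226 to 243 FPKM under tunicamycin and from 215 to 271 FPKM in PBS.2 (0.01 ± 0.05). The groups overlapped for each of these 4 genes, and the 95% intervals were -6.36 to +4.84% for Prom1 and -6.84 to +8.91% for Rp1.

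Among the transcription factors, all 4 had negative differences under tunicamycin against PBS.2 and again 0 passed (median -0.14). Nr2e3, the rod receptor that represses cone genes, was the member closest to the threshold. It had 247, 302, 287, 269.9 and 257 FPKM in tunicamycin libraries, against 319, 384, 359.8, 271 and 303 FPKM in PBS.2 libraries. The highest tunicamycin value was below 4 of the 5 PBS.2 values, and PBS.2 library 4 was the exception that made the groups overlap.

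The log2 difference of Nr2e3 was -0.26 ± 0.09, or -16.3% with an interval from -26.0 to -5.30% (limma adjusted p = 0.0636). It was the only member with an unadjusted p under 0.05 in this comparison, a mark that 3232 of the 13117 genes tested reached. The two-sided exact permutation test of the 10 libraries gave p = 0.0397 for Nr2e3. The side of the threshold changed with single libraries. Nr2e3 passed without PBS.2 library 4 (-0.32, limma adjusted p = 0.0213), without PBS.2 libraries 4 and 5 together (-0.38, adjusted p = 0.0109) and without tunicamycin library 2 or 3 (adjusted p = 0.0471 and 0.0454), whereas without tunicamycin library 1 the difference was -0.22 (adjusted p = 0.176). With the level of Y-linked genes as a covariate it was -0.33 (adjusted p = 0.0718).

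Nrl, the rod-determining leucine zipper factor, had 588, 794, 758, 744 and 799 FPKM in tunicamycin libraries, against 794, 903, 921, 646 and 726 FPKM in PBS.2 libraries. Tunicamycin library 1 was the lowest of the 10 and PBS.2 library 4 the next lowest, and the groups overlapped. The log2 difference of Nrl was -0.11 ± 0.09 (limma adjusted p = 0.466). It was -0.03 without tunicamycin library 1 and -0.25 without PBS.2 libraries 4 and 5 (adjusted p = 0.884 and 0.0736). Neurod1 had 199.9, 243, 259.8, 234 and 224 FPKM in tunicamycin libraries, against 239, 260.1, 215, 333 and 260.2 FPKM in PBS.2 libraries, where library 4 alone reached 333 FPKM. Its log2 difference was -0.16 ± 0.08 (adjusted p = 0.237), and -0.07 without PBS.2 library 4. Crx differed least, with 478 ± 11.8 FPKM under tunicamycin and 487 ± 44.4 FPKM in PBS.2 (SD, n = 5 each) and a log2 difference of -0.02 ± 0.05.

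**Figure D2:**
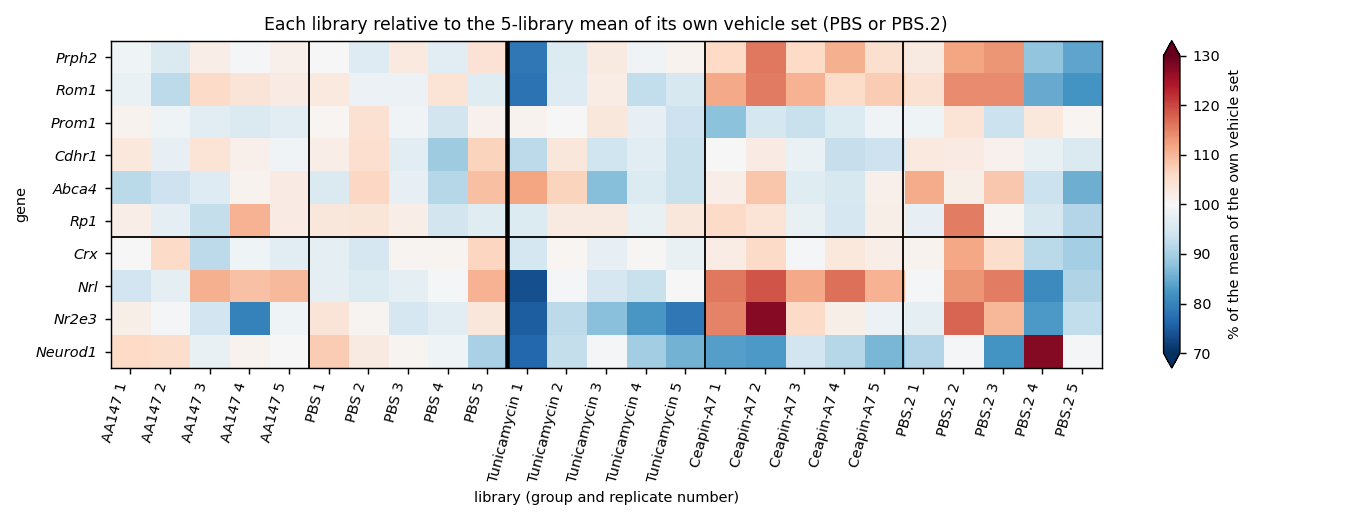
Level of each gene (rows; disc genes above the line, transcription factors below) in each of the 25 libraries (columns) as a percent of the mean of its own vehicle set, PBS for AA147 and PBS.2 for tunicamycin and Ceapin-A7; blue is below 100% and red above. Tunicamycin library 1 and PBS.2 libraries 4 and 5 are low for Prph2, Rom1 and Nrl, and Nr2e3 is below 100% in all 5 tunicamycin libraries.

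Ceapin-A7, set against the same PBS.2 libraries as tunicamycin, also gave 0 of 10 members passing limma's test, where 0% of all genes passed and 1615 had an unadjusted p under 0.05. Of the members, 3 had an unadjusted p under 0.05. The groups overlapped for all 10, where 1.45% of all genes had groups that did not. Nrl had 924, 948, 889, 929 and 882 FPKM in Ceapin-A7 libraries, against the PBS.2 values above. The 5 Ceapin-A7 libraries lay within 882 to 948 FPKM, and PBS.2 libraries 2 and 3 lay in the same range. The log2 difference was 0.21 ± 0.09 (limma p = 0.0272, adjusted p = 0.360; exact permutation p = 0.0794), and 0.07 without PBS.2 libraries 4 and 5.

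Neurod1 ranged from 217 to 246 FPKM under Ceapin-A7 and from 215 to 333 FPKM in PBS.2, with a log2 difference of -0.18 ± 0.08 (limma adjusted p = 0.397), and of -0.08 without PBS.2 library 4. For Prom1 the range was 221 to 249 FPKM under Ceapin-A7 and 236 to 262 FPKM in PBS.2, with a log2 difference of -0.09 ± 0.04 (adjusted p = 0.380). The groups overlapped for both genes. Nr2e3 had 376, 417, 346, 333 and 321 FPKM in Ceapin-A7 libraries, on both sides of the PBS.2 mean, and a log2 difference of 0.14 ± 0.09 (adjusted p = 0.522), which came to 0.07 without PBS.2 library 4.

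The rim genes Prph2 and Rom1 averaged 2233 ± 95.4 and 1861 ± 64.2 FPKM under Ceapin-A7, against 2056 ± 275 and 1690.1 ± 263 FPKM in PBS.2 (SD, n = 5 each). Their log2 differences of 0.13 ± 0.08 and 0.15 ± 0.09 (limma adjusted p = 0.513 and 0.465) came to -0.01 for each without PBS.2 libraries 4 and 5, and that of Prph2 was -0.12 under quantile normalization. Cdhr1, Abca4, Rp1 and Crx had log2 differences between -0.04 and 0.04. Over the 10 members the 95% intervals ran from -21.4 to +31.1%.

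AA147, set against PBS, gave the flattest values. For this compound 0 of 10 members passed limma's test and 0 had an unadjusted p under 0.05, where 0% of all genes passed and 246 had an unadjusted p under 0.05. The log2 differences of the 10 members lay between -0.08 and 0.06 (each limma adjusted p = 0.9998), 5 were positive and 5 negative, and the groups overlapped for every member, where 0.656% of all genes had groups that did not. Nr2e3 had 405, 397, 376, 318 and 393 FPKM in AA147 libraries, against 414, 401, 379, 386 and 412 FPKM in PBS libraries, with AA147 library 4 the lowest of the 10. Nrl had 696, 717, 816, 802 and 809.7 FPKM in AA147 libraries, against 716, 708, 716, 734 and 814 FPKM in PBS libraries, and the 2 groups filled much the same range.

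The disc rim genes were equally close between AA147 and PBS. Prph2 had 2035, 1972, 2101, 2053 and 2089 FPKM in AA147 libraries, against 2057, 1979.5, 2119.9, 1995 and 2147 FPKM in PBS libraries. Rom1 had 1846, 1739, 1992, 1957 and 1934 FPKM in AA147 libraries, against 1939.6, 1850.4, 1854, 1964 and 1817 FPKM in PBS libraries. Over the 10 members the 95% intervals for AA147 ran from -16.4 to +18.1%. Their width comes from the spread pooled over all 5 groups, not from the AA147 and PBS libraries alone.

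The compounds were also compared with each other. Tunicamycin and Ceapin-A7 share a vehicle set and a gene list and were set directly against each other, and here 2 of 10 members passed, both lower, where 13.3% of all genes passed and 4.48% passed as lower. Over all genes 1158 passed as higher and 588 as lower, a split of 912 and 796 when scaled by median ratios and of 824 and 721 after quantile normalization. Nr2e3 averaged 272 ± 22.1 FPKM under tunicamycin and 359 ± 38.4 FPKM under Ceapin-A7 (SD, n = 5 each). Every tunicamycin library, at 247 to 302 FPKM, was below every Ceapin-A7 library, at 321 to 417 FPKM. The log2 difference was -0.39 ± 0.09, or -23.8% with an interval from -32.7 to -13.8% (limma adjusted p = 0.0048), and Nr2e3 passed under each alternative run.

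Nrl averaged 737 ± 86.5 FPKM under tunicamycin and 914 ± 27.9 FPKM under Ceapin-A7 (SD, n = 5 each). The tunicamycin libraries, 588 to 799 FPKM, again lay wholly below the Ceapin-A7 libraries, 882 to 948 FPKM. The log2 difference was -0.32 ± 0.09, or -19.9% (limma adjusted p = 0.0194). This call depended on tunicamycin library 1, without which the difference was -0.24 (adjusted p = 0.0721), and was lost under quantile normalization (-0.21, adjusted p = 0.0915). It was also lost when only the compared groups (adjusted p = 0.0577) or only the tables with the same gene list (adjusted p = 0.0760) were fitted.

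The rim genes showed the same order of libraries without passing. Prph2 ranged from 1615 to 2109 FPKM under tunicamycin and from 2152 to 2381 FPKM under Ceapin-A7, a log2 difference of -0.19 ± 0.08 (limma adjusted p = 0.108). Rom1 ranged from 1317 to 1727 FPKM under tunicamycin and from 1785 to 1953 FPKM under Ceapin-A7, a log2 difference of -0.25 ± 0.09 (adjusted p = 0.0528). Rom1 passed with a pseudocount of 10, median-ratio scaling or array weights (adjusted p = 0.0480, 0.0497 and 0.0225) and without tunicamycin library 3 (adjusted p = 0.0236). In all, 4 of 10 members had groups that did not overlap, each with tunicamycin lower, where 2.74% of all genes did so. The exact permutation p of each was 0.00794, the smallest that 252 arrangements of 5 against 5 can give. Groups of 5 without overlap always give this value, so it adds nothing to the lack of overlap. Taken as deviations from group means, Prph2, Rom1 and Nrl also moved together (r = 0.83 to 0.90), so the 4 genes are not separate observations.

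The other 6 members differed by -0.06 to 0.07 on the log2 scale between tunicamycin and Ceapin-A7, and their groups overlapped. Crx ranged from 461 to 489 FPKM under tunicamycin and from 485 to 515 FPKM under Ceapin-A7 (-0.06 ± 0.05, limma adjusted p = 0.432; exact permutation p = 0.0238). Neurod1 averaged 232 ± 22.3 FPKM under tunicamycin and 229 ± 13.1 FPKM under Ceapin-A7 (0.02 ± 0.08). Lens transcript differed among these libraries as given above; with the lens level as a covariate Nr2e3 and Nrl differed by -0.39 and -0.31 (adjusted p = 0.00515 and 0.0194). With the level of Y-linked genes as a covariate the values were -0.43 and -0.29 (adjusted p = 0.00511 and 0.0476).

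The other 2 pairs of compounds have different vehicle sets and were compared as differences of differences. Between tunicamycin and AA147, each relative to its own vehicle, 0 of 10 members passed limma's test, where 1.04% of all genes passed (84 higher and 52 lower, or 73 and 69 with quantile normalization). An unadjusted p under 0.05 was reached by 0 members and by 2036 of the 13117 genes tested. The largest difference was that of Neurod1, at -0.19 ± 0.12 on the log2 scale, with an interval from -25.9 to +3.73%. It was -0.10 without PBS.2 library 4. Between AA147 and Ceapin-A7, 0 members passed (0 at an unadjusted p under 0.05), where 0% of all genes passed and 882 had an unadjusted p under 0.05. The largest differences were those of Nr2e3, at -0.22 ± 0.12 (-27.8 to +2.40%), and Neurod1, at 0.20 ± 0.12 (-2.55 to +36.3%). These intervals do not show the compounds to act alike. Without PBS.2 library 4 the Neurod1 value was 0.11.

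**Figure D3:**
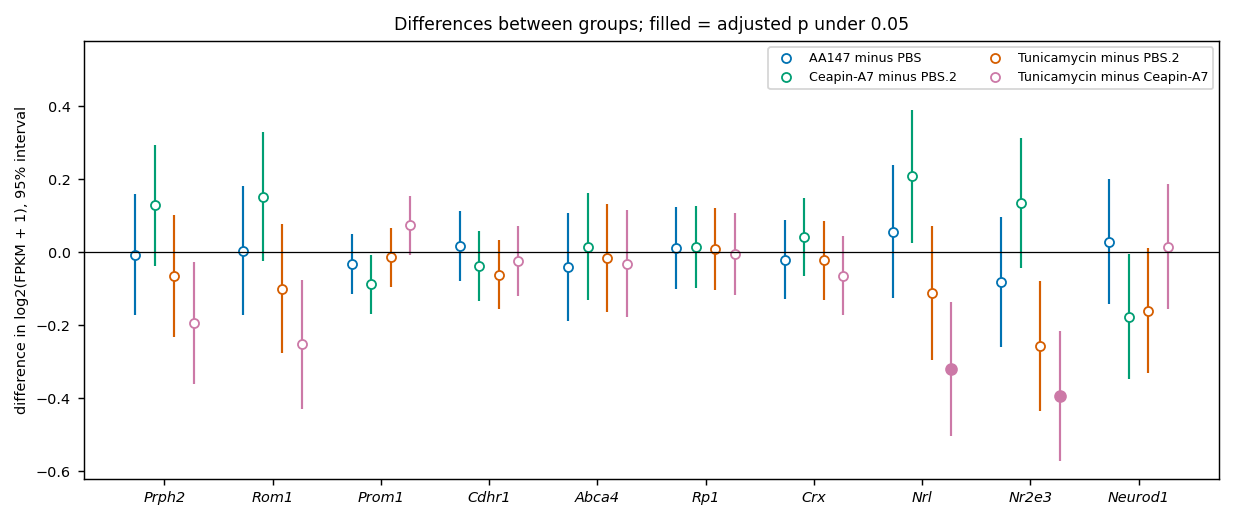
Difference in log2(FPKM + 1) of each of the 10 genes between groups, with the 95% interval from limma, for AA147 minus PBS, Ceapin-A7 minus PBS.2, tunicamycin minus PBS.2 and tunicamycin minus Ceapin-A7; filled points have an adjusted p under 0.05. Only Nrl and Nr2e3 between tunicamycin and Ceapin-A7 are filled, at -0.32 and -0.39.

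More genes separated the vehicle sets than separated any compound from its own vehicle. Between PBS.2 and PBS, 5 of 10 members passed, where 46.8% of all genes passed, and 3 had groups that did not overlap, where 33.4% of all genes did, so the members moved about as often as other genes. Cdhr1 had 274, 272, 269, 259.7 and 254 FPKM in PBS.2 libraries, against 369.8, 381, 352, 325 and 387 FPKM in PBS libraries, with no overlap. Its log2 difference was -0.45 ± 0.05 (limma adjusted p = 3.25e-08). The ABC transporter gene Abca4 ranged from 162 to 211 FPKM in PBS.2 and from 219 to 261 FPKM in PBS, also without overlap (-0.34 ± 0.07, adjusted p = 0.000395).

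Rp1 went the other way: it ranged from 215 to 271 FPKM in PBS.2 and from 176 to 193 FPKM in PBS, without overlap, and was higher in PBS.2 by 0.33 ± 0.05 (limma adjusted p = 2.23e-05). Nr2e3 was lower in PBS.2 (-0.29 ± 0.09, adjusted p = 0.00704) and Prom1 slightly lower (-0.11 ± 0.04, adjusted p = 0.0240), with overlapping libraries for both. Prph2, Rom1, Crx, Nrl and Neurod1 did not pass, although Prph2 passed as higher under quantile normalization (0.19). Without PBS.2 libraries 4 and 5 Nr2e3 no longer passed (-0.17, adjusted p = 0.117) and Nrl did (0.24, adjusted p = 0.0255). Nr2e3 was also short of the threshold with the level of Y-linked genes as a covariate (-0.22, limma adjusted p = 0.0940). Prom1 was short of it when only the compared groups were fitted (limma adjusted p = 0.0614). Nor did Prom1 pass without PBS.2 library 3 or PBS library 2 (adjusted p = 0.0811 and 0.0677). Rom1 passed as lower without PBS.2 library 2 or 3 (-0.22 each, adjusted p = 0.0405 and 0.0399). The treatment label of the sets is the same, and what separates their tables cannot be told apart from a difference between the animals. Against PBS in place of PBS.2, tunicamycin would have 6 members passing and Ceapin-A7 5, and against PBS.2 in place of PBS, AA147 would have 4.

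The mean ratios of Rom1 to Prph2 and of Nr2e3 to Nrl differed between the table sets. That of Nrl to Crx did not follow them. Rom1 stood at 0.801 ± 0.027 of the Prph2 level in tunicamycin libraries and 0.834 ± 0.032 in Ceapin-A7 libraries, against 0.820 ± 0.021 in PBS.2 libraries (SD, n = 5 each). In AA147 libraries the ratio was 0.923 ± 0.030, against 0.917 ± 0.055 in PBS libraries. Within each table set the compounds and their vehicle gave overlapping ratios, and tunicamycin library 1 and PBS.2 libraries 4 and 5, where both genes were low, lay in the same range of the ratio. Nr2e3 stood at 0.373 ± 0.035 of the Nrl level in tunicamycin libraries and 0.392 ± 0.033 in Ceapin-A7 libraries, against 0.411 ± 0.014 in PBS.2 libraries. In AA147 libraries it was 0.496 ± 0.075, against 0.541 ± 0.030 in PBS libraries. These ratios overlapped within each table set too. Single libraries also overlapped between the sets. Nr2e3 to Nrl was 0.396 in AA147 library 4, within the PBS.2 range of 0.391 to 0.425. Rom1 to Prph2 was 0.846 in PBS library 5, below the 0.864 of Ceapin-A7 library 1. Nrl to Crx averaged 1.54 in tunicamycin, 1.83 in Ceapin-A7, 1.63 in PBS.2, 1.57 in AA147 and 1.48 in PBS libraries. Its tunicamycin libraries (1.28 to 1.68) lay wholly below its Ceapin-A7 libraries (1.77 to 1.86).

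**Figure D4:**
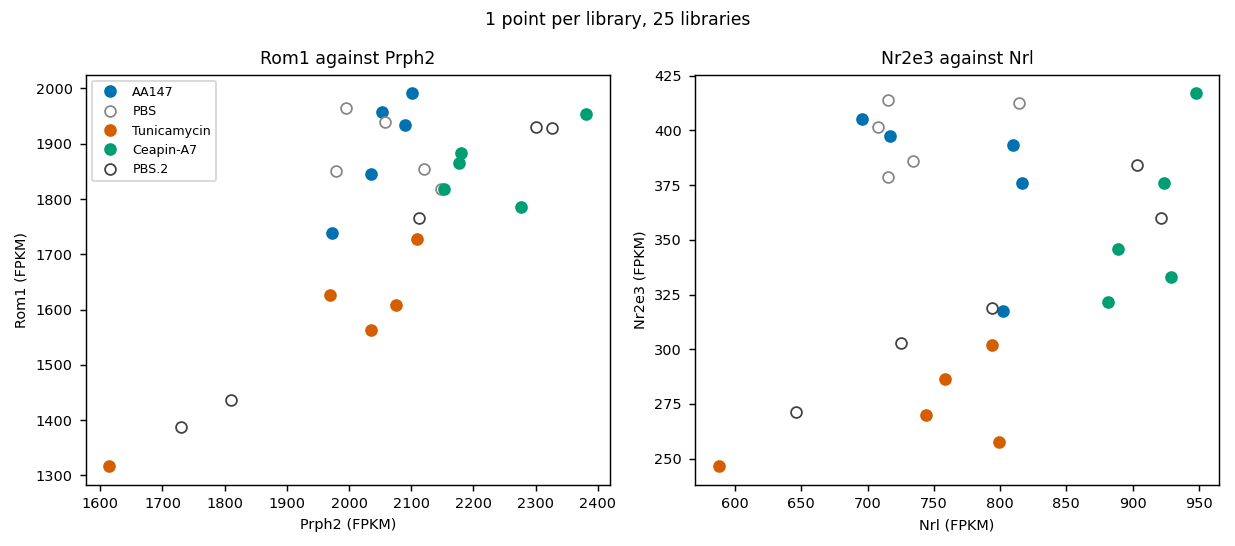
Rom1 against Prph2 (left) and Nr2e3 against Nrl (right) in FPKM, 1 point per library, 25 libraries in 5 groups; the axes do not start at 0. The low corner of the left panel holds tunicamycin library 1 and PBS.2 libraries 4 and 5, and on the right the 5 tunicamycin libraries lie below and to the left of the 5 Ceapin-A7 libraries.

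The members fell into steady and variable genes. The SD of log2(FPKM + 1) within groups was lowest for Prom1 at 0.053 and Cdhr1 at 0.067, with 2.43% and 10.03% of all tested genes lower. It was highest for Nrl at 0.142, Nr2e3 at 0.141 and Neurod1 at 0.136, beside a median of 0.105 over all genes. Crx, at 0.075, was the steadiest of the factors.

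Across the 25 libraries, taken as deviations from group means, genes most like the mean of the 6 disc genes included Syne3 (r = 0.90), Klhl3 (0.90), the rod transducin gene Gnat1 (0.87) and Crb1 (0.86). Those most like the mean of the 4 factors were Slc16a6 (0.92), the actin-bundling gene Fscn2 (0.87), the histone gene H2bc4 (0.86), Gngt1 (0.81) and Atp5h (0.79). The 95th percentile over the other tested genes was 0.43 for the disc mean and 0.52 for the factor mean. The members of a mean did not all move together. Neurod1 had r = -0.33, -0.37 and -0.25 with Crx, Nrl and Nr2e3, which had 0.54 to 0.60 with each other. Among the disc genes Prom1 had -0.22 with Prph2 and -0.29 with Rom1. These values are descriptions, and the libraries behind them include PBS.2 libraries 4 and 5 and tunicamycin library 1, with the low levels given above.

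Other photoreceptor genes gave the setting for the members. Between tunicamycin and PBS.2, 0 of 20 rod phototransduction genes passed (median -0.02), 0 of 20 other outer segment and cilium genes (median -0.03), 0 of 14 other photoreceptor transcription genes (median -0.06) and 0 of 15 photoreceptor synapse genes (median -0.04). Of 12 cone phototransduction genes 1 rose, the cone phosphodiesterase gene Pde6c (0.43 ± 0.09, limma adjusted p = 0.00346), and 11 were positive. In the visual cycle list 4 of 11 fell, among them Rpe65 (-1.78 ± 0.40), Rgr (-1.73 ± 0.44) and Rdh5 (-1.01 ± 0.30), which are transcribed mainly in the pigment epithelium next to the retina rather than in photoreceptors. The pigment epithelium list, of which 11 of 12 genes were tested and 6 fell, summed to 28.1 to 98.0 FPKM in tunicamycin libraries and 129 to 267 FPKM in PBS.2 libraries, with none of its genes at 0; its part in the members' values was not tested. All 12 ER chaperone genes rose (median 1.56). Medians over other retinal cells were -0.16 for 12 amacrine, -0.13 for 12 ganglion cell, -0.12 for 13 Muller glia and -0.09 for 14 bipolar genes. That of the 4 member factors, -0.14, lay among these.

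Between tunicamycin and Ceapin-A7, 4 of 20 rod genes fell (median -0.21, beside 0.01 over all genes), and 19 of 20 were negative. They included Guca1a, which activates guanylate cyclase (-0.37 ± 0.10, limma adjusted p = 0.0155), the rod channel subunit Cngb1 (-0.26 ± 0.08, adjusted p = 0.0252) and the exchanger Slc24a1 (-0.24 ± 0.08, adjusted p = 0.0461). Of 12 cone phototransduction genes 0 passed, 9 were negative and 3 positive, and the median was -0.08. Of the other outer segment genes 4 of 20 fell, among them Fscn2 (-0.39 ± 0.10), the disc protein gene Prcd (-0.27 ± 0.07) and Tulp1 (-0.24 ± 0.07). Of the other transcription factors Rorb, which acts upstream of Nrl, rose (0.36 ± 0.11, adjusted p = 0.0379) and the cone receptor gene Rxrg fell (-0.21 ± 0.06, adjusted p = 0.0221). At the synapse 1 of 15 fell, the vesicular glutamate transporter gene Slc17a7 (-0.23 ± 0.07). Among genes of other retinal neurons, 2 of 14 bipolar, 1 of 12 amacrine and 1 of 12 ganglion cell genes passed as lower, where 4.48% of all genes did. Their medians were -0.13, -0.15 and -0.16, with 10, 11 and 10 genes negative. Of 13 Muller glia genes 1 passed as lower and 10 were negative, with a median of -0.27. Negative medians were thus not particular to the rod genes, although the reactive gliosis list had a median of 0.51.

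**Figure D5:**
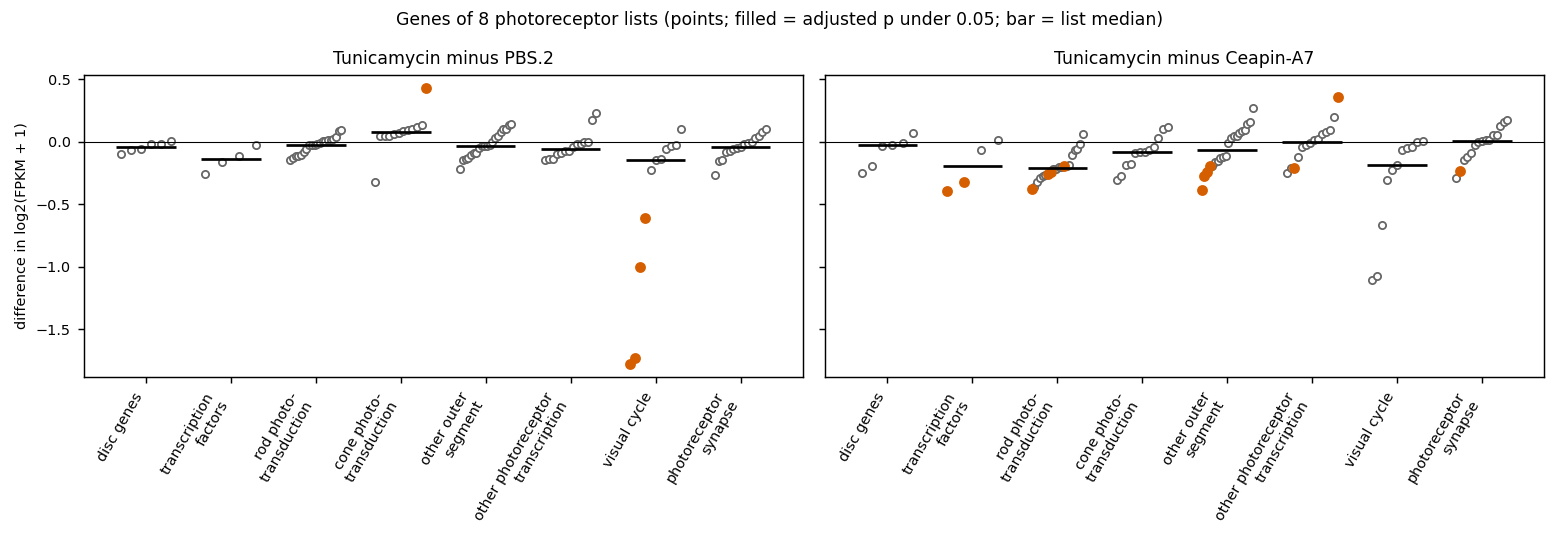
Difference in log2(FPKM + 1) of each gene of 8 lists (points; filled where the adjusted p was under 0.05; bar at the list median) for tunicamycin minus PBS.2 (left) and tunicamycin minus Ceapin-A7 (right). On the left the filled points are Pde6c and 4 visual cycle genes; on the right the filled points below 0 include the members Nrl and Nr2e3 and 4 of 20 rod genes, whose median is -0.21.

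Against PBS.2, Ceapin-A7 gave positive differences for 19 of 20 rod genes, with a median of 0.16 and 0 passing. AA147 against PBS gave 16 negative and 4 positive, with a median of -0.06 and 0 passing. The tunicamycin and Ceapin-A7 values share the PBS.2 libraries, of which libraries 4 and 5 had the low rod levels given above.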

How the data were processed

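The mRNA of mouse retina was sequenced in 25 stranded DNBSEQ libraries, per the labels' protocols. The authors deposited FPKM with 2 decimals in 5 tables, 1 per group. Per the submitters' processing notes, the build was GRCm39 and the tools were HISAT2 2.0.4, RSEM 1.2.18 and DESeq2 1.4.5, with no role or order given. The tables of AA147 and PBS listed 18676 genes and the other 3 listed 19102, and the 18440 in all 5 were used. Columns were matched to samples by name, and 0 columns of values were left out. Because FPKM holds no counts, no count model was used. Depth, estimated from the steps between low values of 2411 single-transcript genes with 250 bases of each unable to start a fragment, was 15.2 to 25.4 M fragments (median 23.5 M). Whole fragments were not recovered, since the mean distance of low values to the nearest whole fragment was 0.149 to 0.199, where chance gives 0.25.

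The 13117 genes that reached 1 FPKM in 5 or more libraries were fitted as log2(FPKM + 1), a scale that understates changes of low genes. A linear model with 1 mean per group (limma 3.58.1, R 4.3.3, variance trend on intensity) gave two-sided tests, and the p-values were adjusted by Benjamini-Hochberg over all genes tested at a threshold of 0.05. Python 3.11.15, pandas 2.3.3, numpy 2.4.6 and matplotlib 3.10.9 were used for tables and figures. Single members were also compared by exact permutation of the 5 and 5 libraries. The fit was tested on simulated data with independent normal noise, which held no libraries standing apart as a whole. For tunicamycin minus PBS.2, 45% of 100 highly expressed genes given a log2 change of 0.25 passed. Of 100 given a change of 0.5, 83% passed. A change of the smaller size was thus often missed.

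All 10 members were tested in every comparison, and not all of them are given one by one in the text. Of each other gene list, the passing genes up to the 3 of largest difference are named, and for likeness the 5 genes most correlated with the mean deviation of each member group, apart from a result that is not reported here. The members and the lists were chosen with earlier results of these data known, so counts over them are descriptions. No list was tested as a set. Promoter windows were matched by symbol to RefSeq tables of GRCm38.p6 for 9 of the 10 members, with Rp1 unmatched. No library repeated another: 0 of 300 pairs held identical values. Alternatives covered the pseudocount, the filter, scaling, a replicate block, array weights, covariates for Y-linked and lens levels, the choice of vehicle set, the samples fitted and the omission of each library.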

Additional observations from a re-analysis of the deposited data

Results flagged for a closer look

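Of the 50 sets of 5 values formed by the 10 genes and 5 groups, 3 held a library whose gap to its nearest neighbour took up more than 0.71 of the range of the set; chance gives such a value in about 1 in 20 sets. Tunicamycin library 1 was the low value of the set for both Nrl (588 FPKM, next 744 FPKM) and Prph2 (1615 FPKM, next 1970.0 FPKM). The same library had the highest Hspa5, Cryaa and lens gene sum of the 25, and the part of these in its low Nrl and Prph2 was not tested. PBS library 5 was the high value for Nrl, at 814 FPKM, with the next at 734 FPKM.

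The tunicamycin and Ceapin-A7 effects differed from each other for 2 members. The direct test gave -0.32 for Nrl and -0.39 for Nr2e3 on the log2 scale (limma adjusted p = 0.0194 and 0.0048), with tunicamycin lower in 5 of 5 libraries of each. Because both compounds are set against the same PBS.2 libraries, the size of this difference does not depend on the vehicle values. The adjusted p-values do depend on them, through the spread pooled over all 5 groups. Nrl did not pass when only the compared groups were fitted, as given above.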

How the results depend on the processing

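Of 1820 values of single members under alternatives, 1762 kept their side of the threshold and, where called, their direction; a change of sign between 2 values short of the threshold, of which at least 1 lay within its SE of 0, was not counted as a reversal (163 such changes, largest main value 0.17 in size). The choice of vehicle set moved most. With the other vehicle set 7381, 6676 and 6016 genes passed for tunicamycin, Ceapin-A7 and AA147 (members 6, 5 and 4), and against the mean of both sets 5743, 4384 and 2948 (members 5, 4 and 2). There the sign turned for Abca4 and Nr2e3 under Ceapin-A7 (-0.32 and -0.16) and for Abca4, Rp1 and Nr2e3 under AA147 (0.30, -0.32 and 0.21; Rp1 -0.15 against both sets). Quantile normalization turned Prph2 for Ceapin-A7 (-0.12), for AA147 minus Ceapin-A7 (0.13) and for PBS.2 minus PBS (0.19), and left 1 member passing between tunicamycin and Ceapin-A7. The causes were not tested.

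Counts that moved by over 1.5 times from 1141 (tunicamycin minus PBS.2), 1746 (tunicamycin minus Ceapin-A7), 136 (tunicamycin and AA147, each relative to vehicle), 0 (Ceapin-A7) and 0 (AA147) were these. Fitting the compared groups alone gave 74, 595 (1 member) and 80, and fitting all genes of the tables with 1 gene list gave 389 and 703 (1 member), each with fewer libraries behind the spread. The Y-linked covariate gave 442 for tunicamycin, 61 for tunicamycin with AA147 and 1 for AA147, array weights 427 for tunicamycin with AA147, and a pseudocount of 10 gave 1 for Ceapin-A7. Without PBS.2 libraries 4 and 5 together, 2 members passed for tunicamycin. With median-ratio scaling added the number was 2, and without tunicamycin library 1 as well it was 2, with 276 genes for tunicamycin with AA147; these last 2 alternatives were chosen after seeing the data.

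Leaving out 1 library at a time gave 607 (without tunicamycin library 1) to 1983 (without library 3) genes for tunicamycin minus PBS.2 (members 0 to 1), 923 to 2871 for tunicamycin minus Ceapin-A7 by the same libraries (members 1 to 3), 89 to 634 for tunicamycin with AA147, 0 to 19 for Ceapin-A7, 0 to 1 for AA147 and 0 to 1 for AA147 with Ceapin-A7.

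Replicate numbers did not pair the samples: of 25 same-numbered pairs 9 had a correlation of deviations over 0.1, the range was -0.43 to 0.47, and 3 of 25 libraries correlated best with their own number. With the number as a replicate block 1 member, Nr2e3, passed for tunicamycin minus PBS.2 (-0.26, limma adjusted p = 0.0274).

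Depth is known only as an estimate, and FPKM carries no counting error, so the intervals rest on the scatter of 5 libraries per group, pooled over the 5 groups.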
